A study of Mus musculus with 4 samples.

Results

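Integrin chain transcripts were compared between macrophages given a control morpholino and macrophages given morpholinos targeting Regnase-1, an RNase that degrades inflammatory mRNAs. The labels do not say whether the morpholinos raise or lower Regnase-1. The 10 genes encode integrin chains of white blood cells, namely Itgal, Itgam, Itgax, Itgad, Itga4, Itga5 and Itgav for alpha chains and Itgb1, Itgb2 and Itgb7 for beta chains. They were found by symbol in a table of 11111 genes, and all 10 were present. The set was selected on family membership with the difference between these same groups already known, Itgb7 and Itgad being among the most changed genes. The differences of the 10 genes are therefore given as a description, without p-values. Where one of them is said to be past a threshold, this places it in the fit across all genes and is not a test of the set.

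The cells were bone marrow-derived macrophages of C57BL/6 mice, grown for 7 days, with fresh medium given on day 4. They received either the control morpholino (Ctrl MO) or the targeting morpholinos (Reg1-MOs), each at 2 µM with the delivery peptide Endoporter at 6 µl/ml, for 24 hours. Every culture then received lipopolysaccharide (LPS) at 10 ng/ml for 4 hours, so no comparison with unstimulated cells was made. Poly(A) RNA was sequenced in 2 libraries per group, with 23369753 to 25213695 reads per library in the table; the median gene had 404 to 437. Whether the replicates came from separate mice or cultures is not given, so the spread between libraries may be technical. SEs and p-values rest on such spread alone. They are limma's moderated values, which draw the spread of each gene toward that of genes at a like level. In the table the Reg1-MOs libraries are named MO1 and MO2, which are the protocol's names for the targeting morpholinos too, so whether each library received 1 or both is not settled. Zc3h12a, the Regnase-1 gene, had 3407 and 3572 reads in the controls against 7799 and 6753, so its RNA was higher with Reg1-MOs (log2 fold change 1.10, SE 0.07, limma adjusted p = 0.000401). The 2 libraries of each group are called library 1 and library 2. All 9 macrophage markers examined were present, with 681 to 174996 reads per library; Cd68 rose (0.34) and Lyz2 fell (-0.27), and the other 7 did not pass the test.

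Integrins are cell surface receptors built from 1 alpha and 1 beta chain, and they hold cells to matrix or to other cells. Alpha chains largely set which ligand is bound, and beta tails connect to talin, kindlin and the actin cytoskeleton. The beta-2 family (CD18) is restricted to leukocytes and pairs with the alpha chains of Itgal, Itgam, Itgax and Itgad. In macrophages it serves adhesion, uptake of complement-coated particles and migration. Beta-7 pairs with the alpha-4 chain to bind the gut addressin MAdCAM-1, or with the alpha-E chain to bind E-cadherin. Beta-1 pairs with alpha-4 to bind VCAM-1 and fibronectin, and with alpha-5 to bind fibronectin, while alpha-v chains bind ligands such as vitronectin.

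Promoters of 7 of the 10 genes were matched in RefSeq (GRCm38.p6), all but Itgal, Itgad and Itgb2. Those of Itgam, Itgax and Itgb7 are shown because these genes differed most among the matched ones. Each is the 250 bases before the annotated start, 5′ to 3′ on the gene's strand. Capitals mark matches, on either strand, to GAGGAA (core of PU.1 sites) or TGANTCA (AP-1 and related factors).
Itgam, chr7:128062390-128062639, plus strand: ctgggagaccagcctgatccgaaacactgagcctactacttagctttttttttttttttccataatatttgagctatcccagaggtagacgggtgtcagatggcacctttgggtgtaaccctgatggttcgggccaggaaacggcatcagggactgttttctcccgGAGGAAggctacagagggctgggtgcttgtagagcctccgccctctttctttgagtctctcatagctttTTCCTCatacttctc
Itgax, chr7:128129300-128129549, plus strand: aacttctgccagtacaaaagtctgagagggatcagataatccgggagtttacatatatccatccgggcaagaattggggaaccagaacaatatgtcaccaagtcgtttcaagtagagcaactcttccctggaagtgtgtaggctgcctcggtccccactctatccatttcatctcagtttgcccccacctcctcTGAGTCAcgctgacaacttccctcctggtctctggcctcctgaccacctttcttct
Itgb7, chr15:102231936-102232185, minus strand: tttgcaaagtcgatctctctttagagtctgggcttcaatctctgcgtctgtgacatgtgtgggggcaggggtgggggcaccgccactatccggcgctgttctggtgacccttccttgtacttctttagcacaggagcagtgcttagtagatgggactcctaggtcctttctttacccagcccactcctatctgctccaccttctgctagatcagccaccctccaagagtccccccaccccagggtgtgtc

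The search covered these bases and the 50 after the start, and also included TGTGGT (core of RUNX sites) and TGACNNNGC (core of antioxidant response elements). Itgam held GAGGAA at 84 and 15 bases before the start, and again at position 33 after it. Itgax held TGANTCA at 56 bases before the start and, after it, TGTGGT at position 14 and TGACNNNGC at position 19, which share 1 base. Itgb7 held a single match, GAGGAA at position 3 after the start. The other matched promoters held matches too: GAGGAA in Itgb1, Itga5 and Itgav, TGACNNNGC in Itgb1 and TGTGGT in Itga4. Among the matched promoters only Itgax held TGANTCA, while each other sequence searched was also found outside the shown genes. Of 11430 promoters of the table's genes, 27.0% held GAGGAA, 12.7% TGTGGT, 5.07% TGANTCA and 14.5% TGACNNNGC. The matches describe the letters in these windows only.

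The integrin chains did not move as a block. With Reg1-MOs, Itgb7 was 6.40-fold higher, while the beta-2 partner chains Itgad, Itgax, Itgam and Itgal were 13.4-, 2.93-, 1.59- and 1.50-fold lower and Itga4 was 1.57-fold lower. Their shared beta chain, Itgb2, stood at 1.13-fold, and Itgb1, Itga5 and Itgav were within 1.16-fold of the controls. In the fit across all genes, limma's moderated test with a Benjamini-Hochberg adjusted p of 0.05, 1 of the 10 genes was past the threshold as higher and 5 as lower. Of all 11111 genes, 12.2% were past it, 6.22% as higher and 6.03% as lower. The 10 genes had a median log2 fold change of -0.40, against -0.03 for all genes. In 9 of the 10 the normalised values of the groups did not overlap, which held for 58.9% of all genes. These shares describe a set chosen with this comparison known. By size of change among all 11111 genes, Itgad ranked 3, Itgb7 ranked 7 and Itgax ranked 86. In bulk RNA, fewer cells carrying a transcript and less transcript per cell cannot be told apart.

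**Figure D1:**
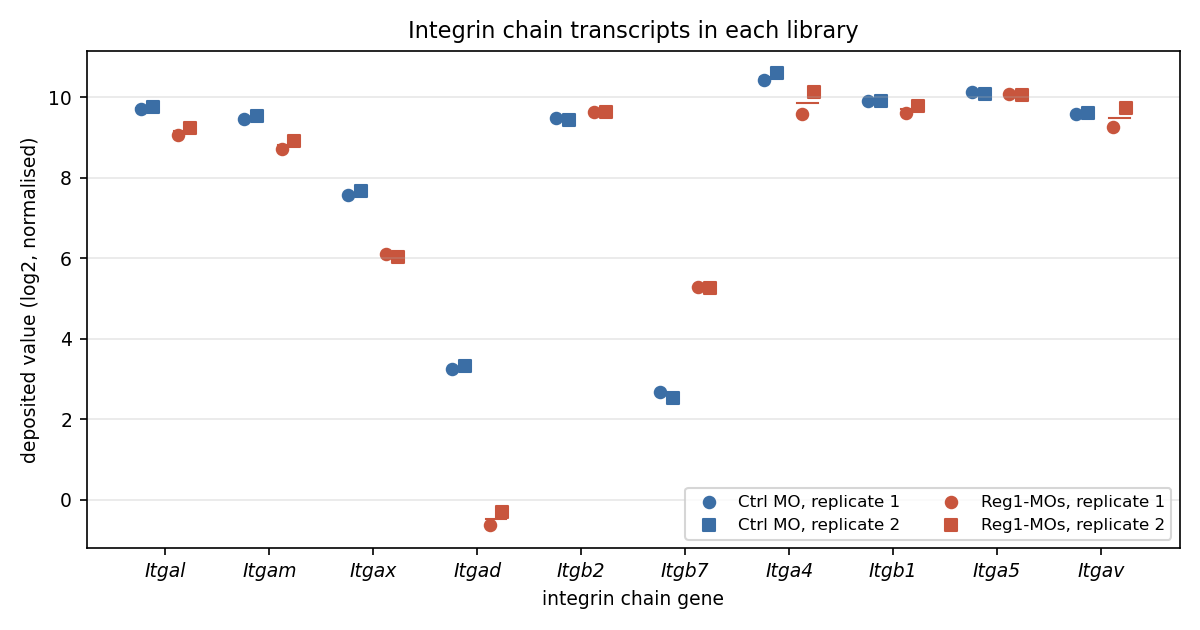
Deposited log2 normalised values (vertical axis) of the 10 integrin chain genes (horizontal axis) in each library. Circles are replicate 1 and squares replicate 2, blue is Ctrl MO and red Reg1-MOs, and short lines are group means; Itgad and Itgax lie lower and Itgb7 higher in both Reg1-MOs libraries, and only the Itgav values of the groups overlap.

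**Figure D2:**
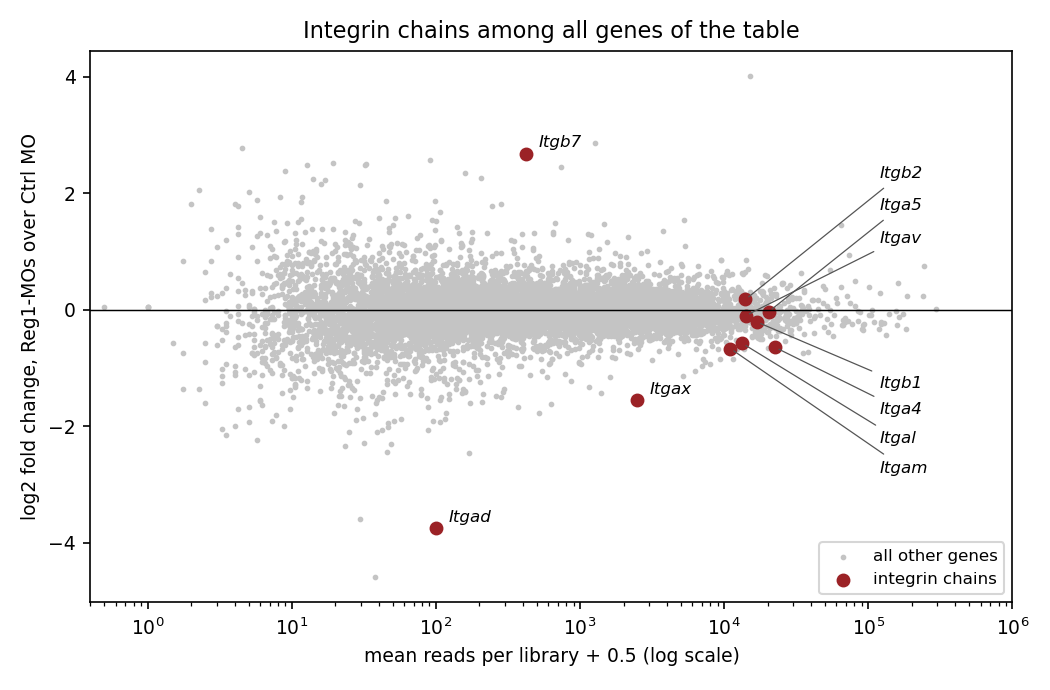
Log2 fold change of Reg1-MOs over Ctrl MO (vertical axis) against mean reads per library plus 0.5 (horizontal log axis) for all 11111 genes, with the integrin chains in red. Itgb7 (2.68) and Itgad (-3.75) lie at the edges of the cloud, and Itgb2, Itgb1, Itga5 and Itgav lie near the centre. Itga4, the chain with the most reads, stood at -0.65.

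Itgad encodes CD11d, an alpha chain of beta-2 found on macrophages of tissues such as the spleen. It had 180 and 191 reads in the Ctrl MO libraries and 12 and 14 in the Reg1-MOs libraries. Both Reg1-MOs libraries lay far under both controls, with a log2 fold change of -3.75 (SE 0.20). Only 1 of the 11111 genes had a lower one.

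Itgax encodes CD11c, the alpha chain of complement receptor 4, widely used as a marker of dendritic cells and also present on many macrophages. It had 3644 and 3850 reads against 1328 and 1168. The groups were well apart and the libraries within each group close, with a log2 fold change of -1.55 (SE 0.07).

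Itgam encodes CD11b, the alpha chain of complement receptor 3 (Mac-1), which binds complement-coated particles and fibrinogen. It had 13323 and 14037 reads against 8168 and 8565, a log2 fold change of -0.67 (SE 0.08). Itgal encodes CD11a, the alpha chain of LFA-1, which binds ICAM molecules on other cells. It had 15824 and 16567 reads against 10324 and 10737, a log2 fold change of -0.58 (SE 0.08). For both genes the Reg1-MOs libraries lay under both controls, and neither was past the threshold in a fit without a mean-variance trend.

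Itgam, Itgax and Itgad lie beside each other on chromosome 7, on the plus strand. Itgam runs from 128062640 to 128118491, Itgax from 128129547 to 128150657 and Itgad from 128154376 to 128223816. Itgal lies apart from them on the same chromosome, from 127296260 to 127335138, also on the plus strand (GRCm38, GENCODE M21). The annotated span of Itgad is overlapped on the other strand by Cox6a2, a cytochrome oxidase subunit gene with 21 and 11 reads against 43 and 25. The strand setting of the counting is not given in the sources used here, so reads in that overlap cannot be assigned to either gene with certainty. The span of Itga4 is overlapped in the same way by Cerkl, which had 9 to 12 reads per library. Other annotated overlaps involve genes not among the 11111. They include protein-coding Gm49368 on the strand of Itgam and the pseudogene Gm17831 on that of Itgad. Further ones lie in the spans of Itgad, Itga5 and Itgav. Reads in these overlaps cannot be assigned with certainty either.

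Itgb2, on chromosome 10 (77530252 to 77565708), encodes CD18, the chain that all these alpha chains need to reach the surface. It had 13517 and 13229 reads against 15414 and 13993. The log2 fold change was 0.17 (SE 0.06), which was not past the threshold, and it stayed between 0.16 and 0.22 under the 10 alternative settings. With the replicate number as a block it was past the threshold. Per kb of exon, the summed reads of the 4 alpha partners were 1.32 and 1.42 times those of Itgb2 in the controls and 0.688 and 0.782 times in the Reg1-MOs libraries. With coding length in place of exon length the same ratio was 1.55 and 1.66 against 0.813 and 0.925. The ratio was thus lower in both Reg1-MOs libraries than in both controls by either length. It compares RNA, not surface protein.

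The make-up of the alpha partner pool also differed. Itgax held 13.0% and 13.0% of the summed reads per kb of exon in the controls and 7.95% and 6.78% with Reg1-MOs. Itgad held 0.681% and 0.688% against 0.0765% and 0.0866%. Itgal held 41.1% and 40.9% against 45.2% and 45.6%, and Itgam held 45.3% and 45.4% against 46.8% and 47.5%. Itgal and Itgam thus gave most of the pool in every library. Their own ratio, Itgal per Itgam, was 0.908 and 0.903 against 0.967 and 0.959.

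**Figure D3:**
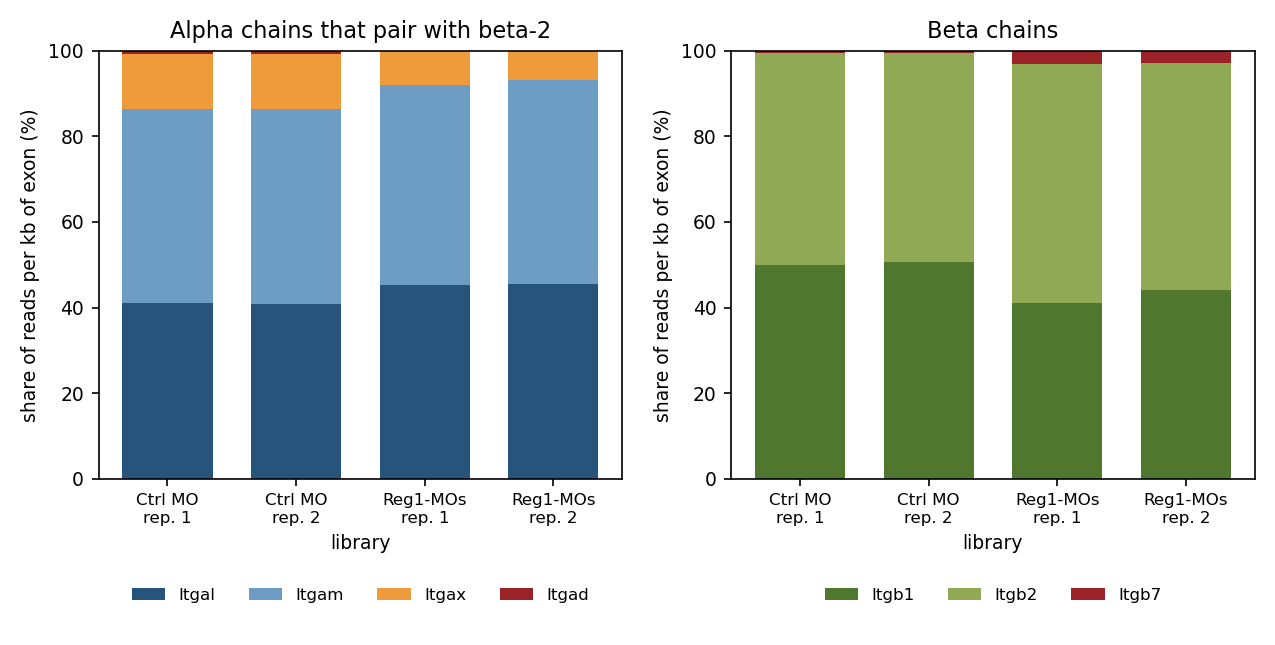
Shares of reads per kb of exon (vertical axis, percent) in each of the 4 libraries (horizontal axis), for the alpha chains that pair with beta-2 (left) and for the beta chains Itgb1, Itgb2 and Itgb7 (right). The Itgax band shrinks from 13.0% in the controls to 7.95% and 6.78% with Reg1-MOs, and the Itgb7 band grows from under 0.489% to 3.03% and 2.86%.

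Itgb7, on the minus strand of chromosome 15 (102215995 to 102231944), encodes the beta-7 chain, best known from gut-homing lymphocytes and mast cell precursors. It had only 121 and 110 reads in the controls, against 757 and 686. The log2 fold change was 2.68 (SE 0.10), and 3 of the 11111 genes had a higher one. Of the summed reads per kb of exon of Itgb1, Itgb2 and Itgb7, Itgb7 held 0.489% and 0.447% in the controls and 3.03% and 2.86% with Reg1-MOs.

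Itga4, on chromosome 2 (79255426 to 79333123), encodes the alpha-4 chain, which pairs with beta-1 or beta-7. It had 26058 and 29439 reads against 14782 and 19954. Both Reg1-MOs libraries lay under both controls, but they differed from each other by 0.56 on the log2 scale. The log2 fold change was -0.65 (SE 0.16). It was past the threshold in the fit of all 4 libraries, and not without Reg1-MOs library 1 (-0.37) or without a mean-variance trend. Per kb of exon, Itga4 exceeded Itgb7 by 42.7 and 53.0 times in the controls and by 3.87 and 5.76 times with Reg1-MOs. By coding length it did so by 169 and 210 times against 15.3 and 22.8 times, since many exonic bases of Itga4 are non-coding. The second known partner of beta-7, encoded by Itgae, was not found by symbol among the 11111 genes.

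Genes with a profile like that of Itgb7 were sought by the Euclidean distance between log2 values centred on each gene's mean, over the 4 libraries. Where the mean reached 50 reads or more, near profiles belonged to Cdkn1c, a cell cycle inhibitor (distance 0.201; 342 and 285 against 2321 and 2094) and the iron exporter Slc40a1 (0.254; 243 and 222 against 1351 and 1118). No gene came as near to Itgad. Its nearest were the collagen gene Col12a1 (1.31), the prostaglandin-degrading Hpgd (1.81) and the cytochrome P450 gene Cyp1b1 (1.82), all with smaller differences, at log2 fold changes of -2.47, -2.07 and -1.93. Col12a1 is also among the stromal markers described further on.

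The fibronectin and vitronectin receptor chains differed little. Itgb1, encoding the beta-1 chain (chromosome 8, 128685654 to 128733200), had 18218 and 18386 reads against 15134 and 15610, a log2 fold change of -0.21 (SE 0.07). It was not past the threshold, but was without Reg1-MOs library 2 (-0.30) and with a replicate block. Itga5, encoding the alpha-5 chain (chromosome 15, 103344286 to 103366763), had 21200 and 20632 reads against 20850 and 18929. Its log2 fold change was -0.03 (SE 0.06), and 0.03 with quantile normalization. Itgav, encoding the alpha-v chain (chromosome 2, 83724397 to 83806916), had 14694 and 14780 reads against 11877 and 14968. The controls lay between the Reg1-MOs libraries in normalised value. The log2 fold change was -0.11 (SE 0.13), and it was 0.12 without Reg1-MOs library 1 and -0.335, past the threshold, without Reg1-MOs library 2. These 2 libraries therefore give opposite directions for Itgav.

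**Figure D4:**
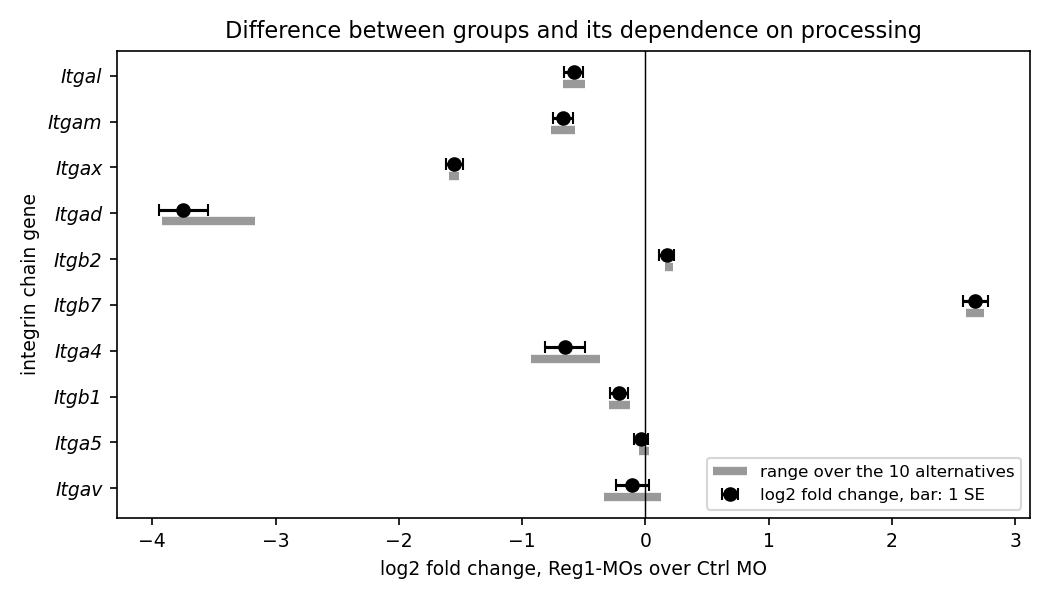
Log2 fold change of Reg1-MOs over Ctrl MO (horizontal axis) for each integrin chain gene (vertical axis), with bars of 1 SE, and in grey the range over the 10 alternative settings. The ranges of Itgb7 (2.60 to 2.75), Itgax (-1.59 to -1.51) and Itgad (-3.92 to -3.17) stay far from 0, and those of Itga5 (-0.05 to 0.03) and Itgav (-0.335 to 0.12) cross it.

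The libraries of a group agreed closely for some chains and not for others. The controls differed by at most 0.18 on the log2 scale, for Itga4. The Reg1-MOs libraries differed by 0.01 for Itgb2, 0.01 for Itga5 and 0.02 for Itgb7, but by 0.34 for Itgad, which had few reads, 0.46 for Itgav and 0.56 for Itga4. Library 1 was the lower of these for Itga4, Itgav, Itgam, Itgal, Itgb1 and Itgad.

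Levels per kb, taken from the normalised values, placed Itgb7 and Itgad together at the bottom in the controls and apart with Reg1-MOs. Per kb of exon, Itgb7 stood at 2.20 ± 0.146 (SD, n = 2) and Itgad at 2.16 ± 0.0918 (SD, n = 2) with Ctrl MO, and their libraries overlapped. With Reg1-MOs, Itgb7 stood at 14.03 ± 0.116 (SD, n = 2), overlapping Itgax at 13.98 ± 0.412 (SD, n = 2), and Itgad at 0.162 ± 0.0268 (SD, n = 2). By coding length the Reg1-MOs values of Itgax (19.1 ± 0.564, SD, n = 2) and Itgb7 (16.0 ± 0.133, SD, n = 2) did not overlap. Above these, the controls ran from Itgax at 40.9 through Itgav (71.9), Itga4 (104), Itgal (129) and Itgam (143) to Itga5 (222), Itgb2 (230) and Itgb1 (235), with no overlap between neighbours. The order with Reg1-MOs was Itga4 (67.5), Itgav (67.7), Itgal (86.5), Itgam (89.9), Itgb1 (203), Itga5 (217) and Itgb2 (259). There, Itga4 and Itgav overlapped, and so did Itgal and Itgam. The order depended on the length used. By coding length Itga4 was the highest in the controls, at 470.1 ± 40.8 (SD, n = 2), and with Reg1-MOs the values of Itgb2, Itga5, Itgb1, Itga4 and Itgav each overlapped the next.

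Of 40 other measured genes whose annotated span comes within 100000 bp of any of the 10, none rose and 3 fell (limma; 1 higher and 4 lower at an unadjusted p below 0.05), beside 6.22% and 6.03% of all genes, so the count says nothing particular of the neighbours. The 3 were Csad, a taurine synthesis enzyme gene near Itgb7 (-0.72, SE 0.13, limma adjusted p = 0.0121), the fatty acid receptor gene Gpr84 near Itga5 (-0.44, SE 0.06, adjusted p = 0.00602) and the inflammasome adaptor gene Pycard near Itgam (-0.31, SE 0.07, adjusted p = 0.0360). Zfp740, 389 bp from Itgb7, stood at 0.02 (SE 0.09, adjusted p = 0.913), and Rarg, 2994 bp from it, at -0.08 (SE 0.10, adjusted p = 0.636). None of the 3 falls passed without a variance trend. Those of Csad and Pycard ended when either Reg1-MOs library was dropped, and that of Pycard also without either control.

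Genes that work with integrins were taken from 7 lists. Of their 132 genes in the table, 11 rose and 31 fell. The lists were drawn up by function, with earlier results of these data known, and are described by counts beside the 6.22% and 6.03% of all genes that rose and fell.

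Of 8 further integrin chains in the table, none rose and 3 fell, with a list median of -0.52. At an unadjusted limma p below 0.05, 0 were higher and 4 lower. The 3 were Itga1, a collagen receptor chain (148 and 150 reads against 67 and 78; log2 fold change -0.999, SE 0.16, limma adjusted p = 0.00894), Itgb8, whose product activates latent TGF-beta with alpha-v (2148 and 2299 against 703 and 1343; -1.15, SE 0.28, adjusted p = 0.0400), and Itga9 (-0.35, SE 0.09, adjusted p = 0.0404). Without a variance trend none of the 3 passed. Without Reg1-MOs library 1 only Itgb8 passed, at -0.62, and without Reg1-MOs library 2 its value was -1.68. Itga9 also lost its call without either control.

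Among 24 ligand genes, 12 fell and 1, the complement gene C3 (0.40), rose, with a median of -0.54. The largest falls were those of the laminin gene Lamb1 (-2.11, SE 0.29, limma adjusted p = 0.00517), Thbs2 (-2.02, SE 0.22) and the collagen genes Col1a1 (-1.78, SE 0.13, adjusted p = 0.000596) and Col1a2 (-1.63, SE 0.13). Postn (-1.59), fibronectin Fn1 (-1.43, SE 0.12, adjusted p = 0.00121), Tnc (-1.36), Col3a1 (-1.36) and Ccn1 (-1.23) fell as well. Vcam1, which binds alpha-4 beta-1, fell by 0.50 (SE 0.08, adjusted p = 0.0086), and Icam1, which binds the beta-2 integrins, stood at -0.09 (SE 0.06, adjusted p = 0.365) with 95904 to 110864 reads. The falls numbered 8 without a variance trend, and 9 without Reg1-MOs library 1, where Ccn1 lost its call. The C3 rise was lost when control library 1 or Reg1-MOs library 2 was dropped, and when no variance trend was fitted. Of 12 stromal and fibroblast markers 10 were in the table and all 10 fell, with a median of -1.70. Their summed normalised values were 202 and 209 in the controls against 78.2 and 91.1, and Col1a1, Col1a2 and Col3a1 belong to both lists. Their part in the ligand and integrin results was not tested.

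**Figure D5:**
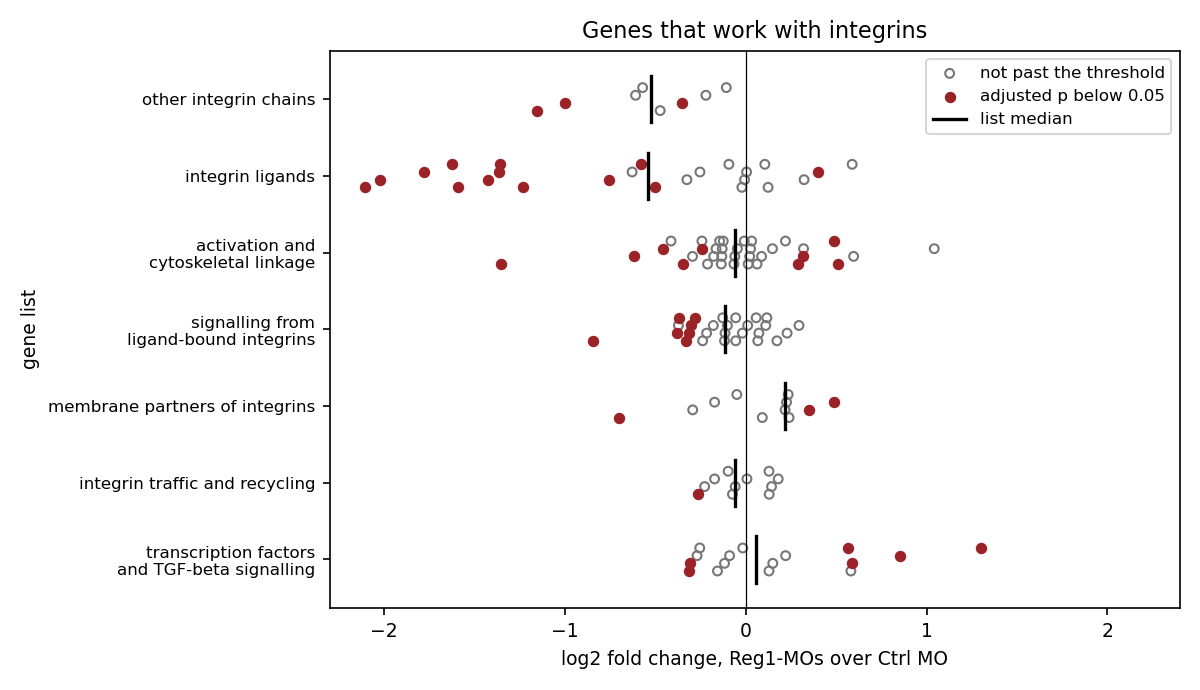
Log2 fold change of Reg1-MOs over Ctrl MO (horizontal axis) of each gene in the 7 lists (vertical axis), filled red where the limma adjusted p was below 0.05, with black lines at list medians. Integrin ligands (median -0.54) and other integrin chains (-0.52) lie to the left of 0, and membrane partners (0.22) to the right.

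Activators and cytoskeletal links of integrins moved both ways, with 4 rises and 5 falls among 35 genes and a median of -0.06. The adaptor Dok1, which competes with talin for beta tails, rose by 0.51 (SE 0.07, adjusted p = 0.00493 by limma), and the focal adhesion protein vinculin, Vcl, by 0.49 (SE 0.09, adjusted p = 0.0164). The focal adhesion protein Zyx fell by 0.35 (SE 0.06, adjusted p = 0.0150) and the parvin gene Parva fell by 1.35 (SE 0.30, adjusted p = 0.0276; 33 and 42 reads against 12 and 16). None of the 4 passed without a variance trend. Dok1 passed with any 1 library left out, while Vcl lost its call on dropping control library 1 or any Reg1-MOs library, Zyx on dropping any control, and Parva on dropping control library 2 or Reg1-MOs library 1. The list had 1 rise and 2 falls after dropping control library 1, 2 rises and 0 falls after control library 2, 1 of each after Reg1-MOs library 1, and 1 of each when no variance trend was fitted.

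Of 27 genes that signal from ligand-bound integrins, none rose and 7 fell, with a median of -0.12 (limma; 2 higher and 9 lower at an unadjusted p below 0.05). The Src family kinase Fgr fell by 0.85 (SE 0.09, limma adjusted p = 0.00221), the phosphoinositide kinase subunit Pik3cd by 0.33 (SE 0.06, adjusted p = 0.0154) and the adaptor Crk by 0.38 (SE 0.07, adjusted p = 0.0165). Dropping control library 1 left 2 falls, control library 2 left 1, Reg1-MOs library 1 left 2, and a fit with no variance trend left 1. Fgr passed in all of these fits, and Pik3cd and Crk in none of them.

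Among 11 membrane partners, Cd9 (0.49, SE 0.07, limma adjusted p = 0.00715) and the CD98 heavy chain Slc3a2 (0.35, SE 0.06, adjusted p = 0.0135) rose, and Cd81 fell by 0.70 (SE 0.09, adjusted p = 0.00307). Cd9 and Cd81 are tetraspanins, membrane proteins that associate with integrins. The Slc3a2 call was lost on dropping any control or Reg1-MOs library 1, which left 1 rise each time. With no variance trend fitted 0 rises were left, and dropping Reg1-MOs library 2 gave 4. Of 11 genes of integrin traffic, only the recycling GTPase Arf6 passed (-0.27, SE 0.07, adjusted p = 0.0463), with 0 higher and 2 lower at an unadjusted p below 0.05. Arf6 lost its call on dropping any control or Reg1-MOs library 1, under quantile normalization and with no variance trend fitted, and dropping Reg1-MOs library 2 gave 2 falls. Rab5a stood at -0.23 (adjusted p = 0.121), and passed without Reg1-MOs library 2 and with a replicate block, and Rab11a stood at 0.13 (adjusted p = 0.245).

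Of 16 transcription factor and TGF-beta signalling genes known to act on leukocyte integrin genes, 4 rose and 2 fell, with a median of 0.06. Klf4, at 691 and 652 reads against 1504 and 1718, rose by 1.30 (SE 0.11, adjusted p = 0.00121 by limma), Runx2 by 0.86 (SE 0.17, adjusted p = 0.0181) and the TGF-beta receptor gene Tgfbr1 by 0.59 (SE 0.11, adjusted p = 0.0144). Spi1, which encodes PU.1, an activator of myeloid integrin genes, stood at -0.02 (SE 0.08, adjusted p = 0.908), and Runx1 at 0.13 (SE 0.09, adjusted p = 0.372). The remaining rise was that of Cebpa (0.56, SE 0.11, limma adjusted p = 0.0187), at 158 and 160 reads against 244 and 215. The falls were those of Cbfb (-0.31, adjusted p = 0.0405) and Irf8 (-0.31, adjusted p = 0.0265). Runx2 lost its call on dropping control library 1 or any Reg1-MOs library, each of which left 2 rises, and Tgfbr1 on dropping Reg1-MOs library 2 or with no variance trend fitted. Dropping any control or Reg1-MOs library 1, or fitting no variance trend, left 0 falls.

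Markers of other cells that carry these integrins were examined beside them. Of 10 neutrophil markers, cells rich in Itgam and Itgal, 9 were in the table and none passed (limma; 0 higher and 2 lower at an unadjusted p below 0.05), with a median of -0.16. Their summed normalised values were 417 and 473 in the controls against 439 and 337, and Reg1-MOs library 2 was the lowest. Of 11 lymphocyte markers only Il7r (0.76, limma adjusted p = 0.00261), Lck (-0.60, adjusted p = 0.0284) and Cd4 (-0.18, adjusted p = 0.312) were measured here. Summed, they stood at 99.0 and 104 against 136 and 144, although the list median was -0.18 and only Il7r was higher. Of 10 mast cell and basophil markers only Hdc and Kit were measured here, and both fell, with sums of 146 and 139 against 91.96 and 79.98. Of 9 dendritic cell markers only Ccl17 was measured here (-0.43, adjusted p = 0.153). The other markers of these lists were not found by symbol among the 11111 genes. The part of such cells in the Itgb7 and Itgax values was not tested.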

How the data were processed

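Poly(A) RNA of 4 libraries was sequenced after directional library preparation, per the labels' protocols. The submitters' processing notes name cutadapt, FastQC, HISAT2 1.6.3 and mm10, while the counter, its strand setting, any filter and how values were scaled are not stated there or in the labels. The authors deposited log2 normalised values for 11111 genes. All values came out as whole reads plus 0.5 (within 0.01 of a whole number) times a constant per library, so the reads printed are recovered ones.

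The deposited log2 values were fitted with limma 3.58.1 (R 4.3.3; group only, mean-variance trend, two-sided, Benjamini-Hochberg over 11111 genes, threshold 0.05, no filter), which was tested on simulated data. A fold change is on this log2 scale, and understates that of low genes. Of the identifiers, 11088 were in GENCODE M21 (GRCm38), which gave positions and exon lengths. Promoters came from RefSeq. With 2 libraries against 2, an exact permutation test of one gene cannot give a p below 0.333.

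The integrin chains and all gene lists were chosen with earlier results of these data known. Named from each list were the 3 genes with the smallest p and any that passed with a log2 fold change of at least 1 in size, plus neighbours that passed and the 3 nearest profiles, of which 1 is not reported here. Vcam1, Icam1, C3, Spi1, Runx1, Cebpa, Cbfb, Irf8, Zfp740, Rarg and the single markers were named after their values were seen. Alternatives were other scalings, no variance trend, an offset of 8 reads, a mean of at least 50 reads, a replicate block, other lengths and leaving out each library.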

Additional observations from a re-analysis of the deposited data

How the results depend on the processing

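Over 10 alternatives, Itgb7, Itgax and Itgad kept their direction and their side of the threshold. Without a variance trend the genes called numbered 195 higher and 182 lower (691 and 670 with it), the integrin chains called lower 2, the pathway genes 4 and 11 (11 and 31 with it), and the neighbouring genes called lower 0. With the replicate number as a replicate block the counts were 1532 higher and 1891 lower for all genes, 2 higher and 6 lower for the integrin chains, 23 and 47 for the pathway genes and 1 and 4 for the neighbouring genes. The labels give only a number, and same-numbered libraries deviated together with r = 0.0958 across 11111 genes, and 0.314 across the 9476 with a mean of at least 50 reads. Leaving out 1 library gave 249 to 530 genes higher and 258 to 860 lower, 1 to 1 integrin chains higher and 4 to 7 lower, 4 to 9 pathway genes higher and 14 to 33 lower, and 0 to 1 neighbouring genes higher and 1 to 2 lower. These fits assume that the lone library varies like the other group. The log2 fold change of Itga5 reversed with quantile normalization (0.03), and that of Itgav without Reg1-MOs replicate 1 (0.12), while it was -0.335 and past the threshold without Reg1-MOs replicate 2. The share of Itgax differed by -4.88 percentage points without length and by -5.61 per kb of exon. That of Itgam differed by 1.20 points with coding length and 1.04 without length (1.85 per kb of exon), that of Itgad by -0.473 and -0.484 (-0.603), and that of Itgb7 by 1.96 and 1.98 (2.48). For 32 named genes outside the set, 263 fits kept the side of the threshold seen in the main fit, 52 lost a call and 2 gained one. These genes include Rab5a and Rab11a, which had no call in the main fit. The cause of these changes was not tested. Depth limits Itgad most, at 12 and 14 reads with Reg1-MOs.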
